A study of Rattus norvegicus with 8 samples.

Results

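The Dlg and Dlgap scaffolds of rat hippocampal neurons were examined as 9 genes: Dlg1, Dlg2, Dlg3, Dlg4, Dlgap1, Dlgap2, Dlgap3, Dlgap4 and Mpp2. They were chosen by symbol, as paralogs of 2 postsynaptic families plus Mpp2, and are 9 of the 28909 gene symbols in the count table. All 9 passed the filter on low counts, as did 14309 symbols in total. The RNA came from primary hippocampal neurons of Sprague-Dawley rats, grown on filter inserts whose 1 μm pores let dendrites, axons and glial processes through but hold back cell bodies. The layer above the filter is called somata and the layer below it processes. For 48 h, from day in vitro 18 to day 20, cultures received either 100 μM picrotoxin (PTX), which blocks GABA-A receptors and so raises network activity, or the ethanol vehicle (control). Ribosomal RNA was depleted before sequencing, and 2 libraries were made for each of the 4 conditions, so there were 8 libraries: somata control, somata PTX, processes control and processes PTX. Nothing in the sources used here says that the 2 libraries of a condition came from separate cultures, so p-values measure the spread between these libraries, which may be technical.

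The Dlg proteins are membrane-associated guanylate kinases (MAGUKs), which carry PDZ domains, an SH3 domain and a guanylate kinase-like domain without enzyme activity. Their PDZ domains bind the tails of NMDA receptor subunits, of the TARP subunits of AMPA receptors, of potassium channels and of adhesion molecules, and in this way gather them at the postsynaptic density of excitatory synapses. The guanylate kinase-like domain binds the Dlgap proteins (also called GKAP or SAPAP), which in turn bind Shank, and Shank binds Homer, so that the families form successive layers of the density. Dlg4 encodes PSD-95, Dlg2 PSD-93, Dlg3 SAP102 and Dlg1 SAP97. Chronic activity is known to remodel this density, and Dlgap1 protein is a known substrate of activity-induced degradation.

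RefSeq (assembly GRCr8) lists Dlg2 as an older synonym of Mpp2, another MAGUK, so the rows labelled Dlg2 and Mpp2 were taken by their current symbols only. In the same annotation, Dlg3, Dlg4, Dlgap3 and Mpp2 overlap no other gene model. Dlg2 spans 11 other models, Dlgap1 5, Dlgap2 2, and Dlg1 and Dlgap4 1 each. None of these models has a row under its RefSeq symbol in the count table. The names in that table come from another annotation, so a row under another name would have been missed. The library kit keeps strand, but the strand setting of the counting is not given in the sources used here. Whether reads from such models were counted with the named gene therefore cannot be told.

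Libraries held 12290890 to 14520831 counts in somata and 15120334 to 18455662 in processes. Mitochondrial ribosomal RNA alone took 21.1% to 24.8% of the counts in somata and 64.9% to 68.3% in processes. With all other mitochondrial transcripts set aside as well, 9518079 to 11228343 counts were left in somata and 4703151 to 5492640 in processes. The members were nevertheless well covered, with 165 to 4855 reads each per library. Levels are given as CPM, the counts scaled to 1000000 per library after TMM scaling, which sets the typical gene equal between libraries. Every compartment difference is therefore relative to the typical gene, and the median of all tested genes was -0.05 on the log2 scale. With scaling by library size alone, that median was -1.86 in control cultures and -1.87 in PTX cultures. CPM are not divided by transcript length, and no lengths of the build used were at hand, so levels of different genes are not compared here.

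Marker genes showed what each layer held. The summed level of 5 neuron markers was 1261 to 1591 CPM in somata and 3735 to 5256 CPM in processes, mostly from the dendritic transcript Map2. That of 7 astrocyte markers was 2755 to 4077 CPM in somata and 10788 to 14255 CPM in processes, mostly from Gfap. Summed oligodendrocyte lineage markers were 269 to 453 CPM in somata and 469 to 647 CPM in processes. The 5 microglia markers summed to at most 1.73 CPM and none of them passed the filter, and the 4 markers of endothelium and fibroblasts summed to 14.1 to 43.7 CPM. Single markers went both ways in control cultures. Of the 7 astrocyte markers, Gfap, Slc1a2 and S100b passed the test as higher in processes, at 2.60, 0.75 and 2.16 on the log2 scale, and Slc1a3 and Gja1 as lower, at -0.56 and -0.38. Of the 5 neuron markers, Map2 and Rbfox3 were higher, at 2.30 and 0.52, and Tubb3 and Snap25 lower, at -0.57 and -0.37. The part of these marker levels in the compartment differences of the scaffold genes was not tested. In bulk RNA, fewer cells of a type and less RNA per cell cannot be told apart.

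Of the 4 Dlg genes, Dlg1, Dlg2 and Dlg4 were higher in processes than in somata of control cultures and Dlg3 was lower. Dlg4 differed most. It stood at 134 and 132 CPM in somata control and at 541 and 373 CPM in processes control. Both process libraries lay far above both somatic libraries, although they differed from each other by more than the somatic pair did. The difference was 1.78 ± 0.17 on the log2 scale (SE), or 3.43-fold (adjusted p = 1.12e-05, edgeR quasi-likelihood test). Dlg1, which acts in receptor trafficking and is also present in axons and epithelia, rose from 26.7 and 31.8 CPM to 57.2 and 58.5 CPM, a log2 difference of 0.98 ± 0.12 (adjusted p = 0.000103). Dlg2 rose from 113.5 and 88.1 CPM to 211 and 144 CPM. Its log2 difference of 0.82 ± 0.20 passed the test (adjusted p = 0.00742), but its standard error was the largest of the 9 members, and the call was lost without somata control replicate 2 (adjusted p = 0.0611) or processes control replicate 1 (adjusted p = 0.0831).

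Dlg3, the paralog known for its early expression in development, went the other way. It stood at 74.0 and 67.8 CPM in somata control and at 56.4 and 41.8 CPM in processes control, so the groups did not overlap. Its level fell by 0.53 ± 0.15 on the log2 scale, or 1.44-fold (adjusted p = 0.0139). The call was lost without somata control replicate 1 (adjusted p = 0.0786) or processes control replicate 2 (adjusted p = 0.111).

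All 4 Dlgap genes were higher in processes than in somata of control cultures, and Dlgap3 had the largest difference of the 9 members. Dlgap3, a forebrain member of the family whose loss in mice causes excessive grooming, stood at 24.6 and 28.4 CPM in somata control and at 143 and 105 CPM in processes control. This was a log2 difference of 2.22 ± 0.16, or 4.67-fold (adjusted p = 2.05e-06), and 2.39% of all tested genes had a larger difference in either direction. Dlgap4 went from 35.5 CPM in both somatic libraries to 69.6 and 60.9 CPM, a log2 difference of 0.88 ± 0.11 (adjusted p = 7.70e-05). Dlgap1, the first GKAP described, went from 84.5 and 72.9 CPM to 137.6 and 108.9 CPM, a log2 difference of 0.65 ± 0.14 (adjusted p = 0.00402). Dlgap2 went from 24.0 and 21.2 CPM to 37.6 and 32.3 CPM, a log2 difference of 0.63 ± 0.13 (adjusted p = 0.00292). For none of these 4 genes did a somatic control library reach the level of a process control library.

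Mpp2, a MAGUK that binds adhesion molecules at synapses, was level with the typical gene. It stood at 37.6 and 35.5 CPM in somata control and at 36.5 and 26.8 CPM in processes control, and the groups overlapped. The log2 difference of -0.21 ± 0.14 did not pass the test (adjusted p = 0.255). It did pass with upper quartile scaling, at -0.41 (adjusted p = 0.0306), and without processes control replicate 1, at -0.45 (adjusted p = 0.0299).

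In this comparison 8 of the 9 members passed the test, 7 higher and 1 lower in processes, where 47.7% of all tested genes passed, 25.8% higher and 21.9% lower. The median log2 difference of the members was 0.82, against -0.05 for all genes. The same 8 members did not overlap between the compartments, as held for 74.9% of all genes. With scaling by library size alone the signs of Dlg1, Dlg2, Dlg4, Dlgap1, Dlgap2 and Dlgap4 turned negative, with Dlg4 at -0.05, while 7 of the 9 members lay above the median of all genes under each of the 5 scalings, the one used here included.

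**Figure D1:**
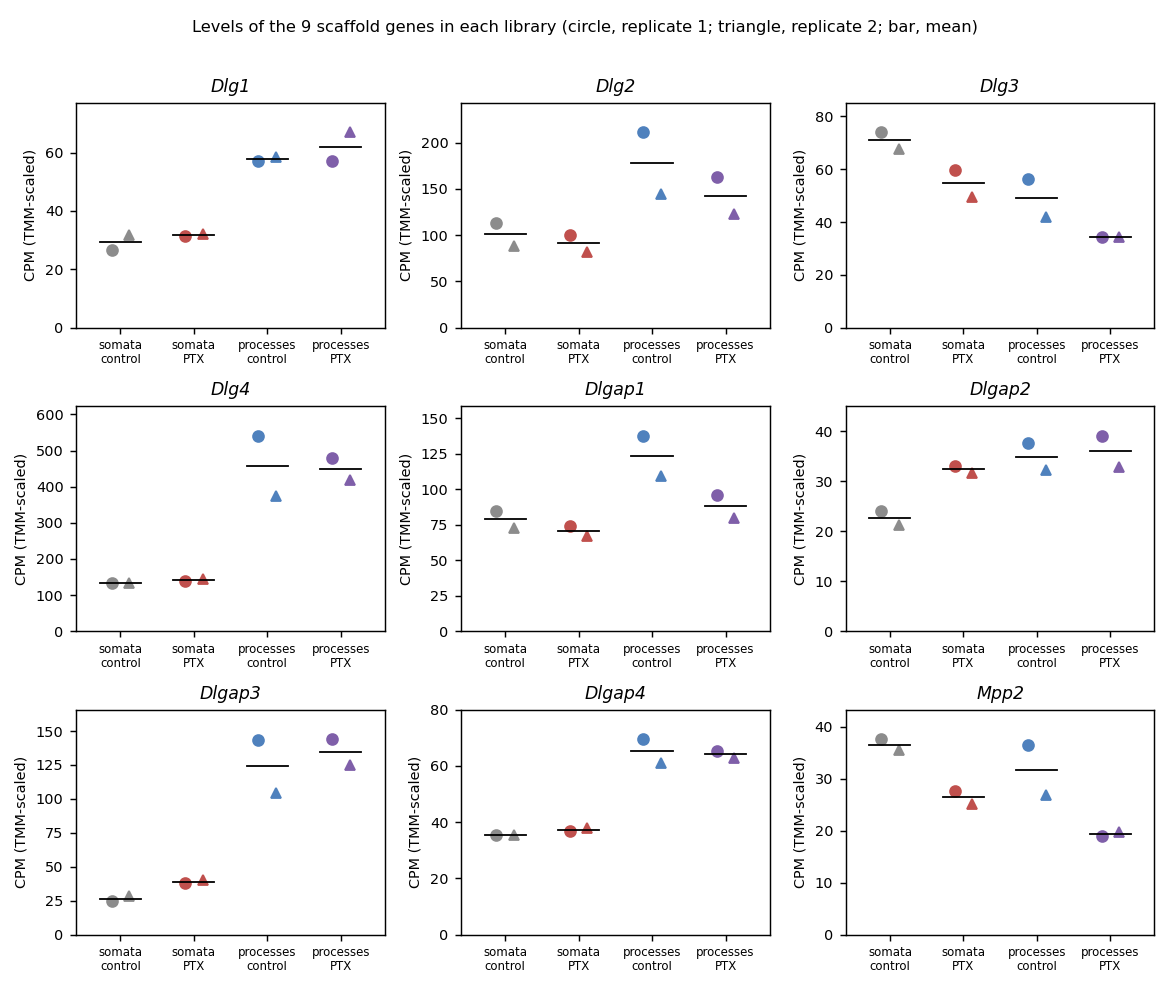
Level of each scaffold gene in the 8 libraries, in TMM-scaled CPM on a linear axis that starts at 0, by condition (circles, replicate 1; triangles, replicate 2; bars, means of 2 libraries). Dlg4 lies at 373 to 541 CPM in the process libraries and at 132 to 145 CPM in the somatic ones, a separation that scaling by library size alone removes, while Dlg3 and Mpp2 are lowest in processes of PTX cultures.

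The compartment differences of control cultures recurred in PTX cultures for most members, and in those cultures 7 of the 9 passed the test, 5 higher and 2 lower in processes, where 49.8% of all tested genes passed, 25.7% higher and 24.0% lower. The 2 comparisons used different libraries. Dlgap3 stood at 37.9 and 40.0 CPM in somata PTX and at 144 and 125 CPM in processes PTX, a log2 difference of 1.79 ± 0.15 (adjusted p = 6.54e-06). Dlg4 stood at 139 and 145 CPM against 479 and 419 CPM, a log2 difference of 1.66 ± 0.17 (adjusted p = 1.70e-05). Dlg1, Dlgap4 and Dlg2 were higher in processes by 0.97, 0.78 and 0.64 on the log2 scale, and Dlg3 was lower, at -0.67 ± 0.15 (adjusted p = 0.00404). For Dlg2 the call was lost without somata PTX replicate 2 (adjusted p = 0.119), without processes PTX replicate 1 (adjusted p = 0.174) and with upper quartile scaling (adjusted p = 0.0744).

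Dlgap1, Dlgap2 and Mpp2 had another outcome than in control cultures. Dlgap1 was at 73.9 and 66.9 CPM in somata PTX and at 96.1 and 79.3 CPM in processes PTX, and its log2 difference of 0.32 ± 0.15 did not pass (adjusted p = 0.0937). With the replicate number as a block it passed (adjusted p = 0.00514), and replicate 1 was the higher library in both layers. Dlgap2 was at 33.1 and 31.6 CPM against 39.2 and 32.9 CPM, a log2 difference of 0.15 ± 0.13 (adjusted p = 0.355), and the groups overlapped. Mpp2 was lower in processes of PTX cultures, with 27.6 and 25.2 CPM in somata and 18.9 and 19.7 CPM in processes, a log2 difference of -0.45 ± 0.15 (adjusted p = 0.0277). DESeq2 gave an adjusted p of 0.0535 for Mpp2, and the call was also lost without somata PTX replicate 1, processes PTX replicate 1 or processes PTX replicate 2 (adjusted p = 0.145, 0.105 and 0.0836). The tests of whether these differences changed with PTX are given with the PTX comparisons. In PTX cultures scaling by library size alone turned the signs of all members but Dlg3 and Mpp2 negative, and upper quartile scaling that of Dlgap2, to -0.03.

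**Figure D2:**
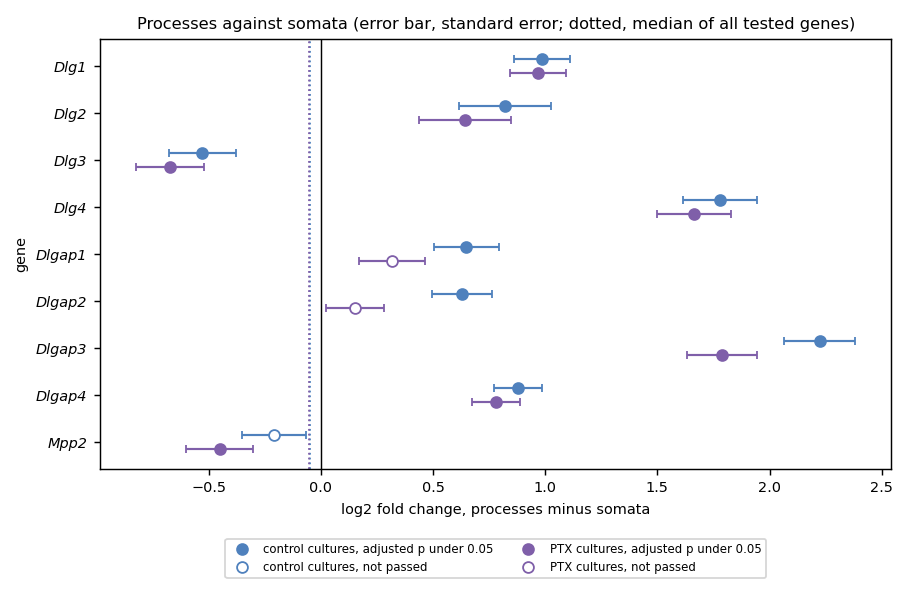
Log2 fold change of processes against somata for each scaffold gene in control and PTX cultures (points, estimates; bars, standard errors; filled, adjusted p under 0.05; dotted lines, median of all tested genes). Dlgap3 and Dlg4 lie farthest to the right and Dlg3 to the left in both kinds of culture; with scaling by library size alone, 6 members in control cultures and 7 in PTX cultures change sign as the median of all genes moves to -1.86 and -1.87.

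Ratios between paralogs within a library do not depend on the scaling of that library, so they show whether members of one family were distributed differently. Among 12 pairs of paralogs, 6 of Dlg and 6 of Dlgap genes, the log2 ratio differed between the 4 process and the 4 somatic libraries, both treatments included, in 8 pairs (p = 0.0286 for each, two-sided exact permutation test over 70 assignments and the smallest p it can give; 0.0429 after Benjamini-Hochberg adjustment over the 12 pairs). In these 8 pairs no process library overlapped a somatic library. That test exchanges libraries across treatments. With libraries exchanged only within a treatment (36 assignments, smallest p 0.0556) or only within same-numbered pairs (16 assignments, smallest p 0.125), tests chosen after the data were seen, no pair could pass, and none did. The ratio of Dlg3 to Dlg4 changed most, from -1.15 ± 0.31 in somata to -3.45 ± 0.30 in processes (mean ± SD, n = 4, log2 scale), a change of -2.31. Relative to both Dlg1 and Dlg2, Dlg3 was also lower in processes, with changes of 1.58 for Dlg1 over Dlg3 and 1.32 for Dlg2 over Dlg3. Dlg4 gained on Dlg1 and on Dlg2, by changes of -0.73 for Dlg1 over Dlg4 and -0.99 for Dlg2 over Dlg4.

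In the Dlgap family it was Dlgap3 that stood apart. Its ratio to each of the other three members was higher in processes, with log2 changes of -1.52 for Dlgap1 over Dlgap3, -1.61 for Dlgap2 over Dlgap3 and 1.17 for Dlgap3 over Dlgap4. The remaining pairs did not pass. Dlg1 over Dlg2 changed by 0.25 (p = 0.371, exact permutation test) and Dlgap1 over Dlgap2 by 0.09 (p = 0.571, exact permutation test). Dlgap1 over Dlgap4 changed by -0.35 (p = 0.0857, adjusted 0.103, exact permutation test) and Dlgap2 over Dlgap4 by -0.44 (p = 0.0571, adjusted 0.0762, exact permutation test). Neighbours in the order of compartment differences, such as Dlg1 and Dlg2 or Dlgap1, Dlgap2 and Dlgap4, were therefore not shown to differ from each other.

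The same can be read from the composition of the reads. Of the reads of the 4 Dlg genes, Dlg4 took 39.95% ± 2.03 in somata control and 61.4% ± 1.49 in processes control (SD, n = 2). The share of Dlg3 was 21.2% and 6.64% in these conditions, that of Dlg2 30.0% and 23.9%, and that of Dlg1 8.79% and 8.03%. Of the reads of the 4 Dlgap genes, Dlgap3 took 16.3% ± 2.40 in somata control and 35.5% ± 1.99 in processes control, while Dlgap1 took 48.1% and 35.5%. In PTX cultures Dlg4 made up 65.2% and Dlgap3 41.7% of the reads of their family in processes, and Dlgap1 27.1%. These shares weight each gene by its transcript length, so a share can be compared between conditions for one gene, but not between genes.

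**Figure D3:**
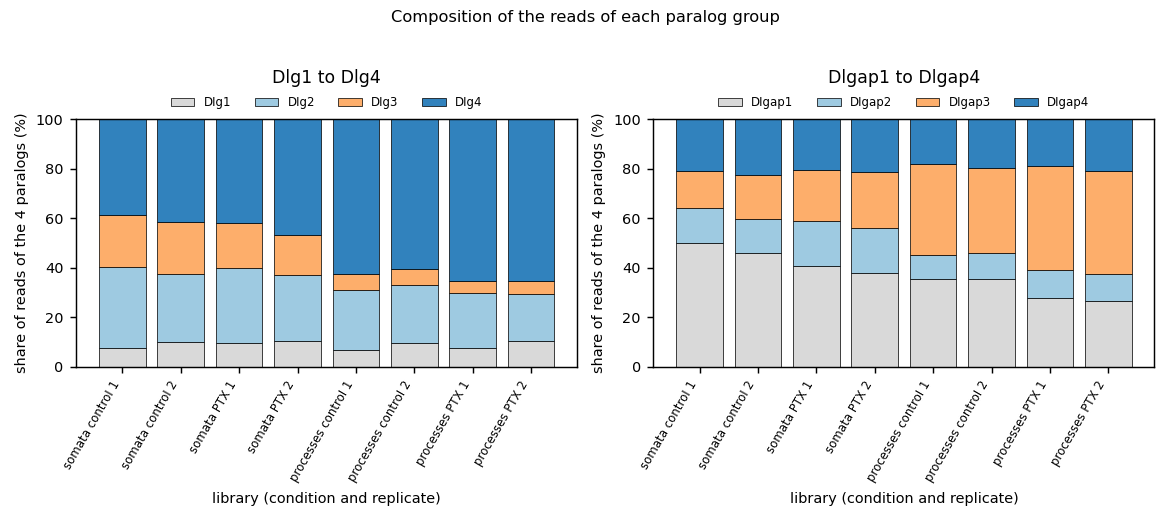
Share of the reads of each paralog family, in percent, taken by each of its 4 members in the 8 libraries; shares depend on transcript length, so only a change between libraries can be read. Dlg4 and Dlgap3 take more and Dlg3 and Dlgap1 less of their family's reads in processes than in somata, a composition within each library that scaling does not alter.

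After PTX, none of the 9 members passed the test in somata (edgeR quasi-likelihood test), where 3.59% of all tested genes did. At an unadjusted p under 0.05 there were 4 members, Dlgap2, Dlgap3, Mpp2 and Dlg3, where 15.6% of all tested genes were. These same 4 members passed with the replicate number as a block, a fit in which 14.0% of all genes passed. The likelihood ratio test called 3 members, where 6.79% of all genes passed, and DESeq2 called 1, where 3.52% passed. Groups did not overlap for 6 members, against 49.0% of all genes, and the median log2 difference was 0.07 for the members and -0.01 for all genes.

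Both members with the largest positive values were Dlgap genes, and whether they passed depended on libraries that the comparison does not hold. Dlgap3 stood at 24.6 and 28.4 CPM in somata control and at 37.9 and 40.0 CPM after PTX, a log2 difference of 0.55 ± 0.15 (adjusted p = 0.0819, or 0.00224 with the block). Dlgap2 stood at 24.0 and 21.2 CPM against 33.1 and 31.6 CPM, a log2 difference of 0.52 ± 0.13 (adjusted p = 0.0525, or 0.000437 with the block). In both genes each PTX library lay above each control library. Dlgap2 passed without processes control replicate 1 (adjusted p = 0.0494) and without processes PTX replicate 1 or 2, and Dlgap3 without processes control replicate 1 or 2 (adjusted p = 0.0367 and 0.0362). Mpp2 stood at 37.6 and 35.5 CPM in control and 27.6 and 25.2 CPM after PTX, a log2 difference of -0.47 ± 0.14 (adjusted p = 0.0991, or 0.00223 with the block and 0.0412 without processes control replicate 1). Dlg3 stood at 74.0 and 67.8 CPM against 59.8 and 49.5 CPM, a log2 difference of -0.37 ± 0.14 (adjusted p = 0.222, or 0.00668 with the block). Both PTX libraries of Mpp2 and of Dlg3 lay below the control libraries.

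The other 5 members had smaller values in somata. Log2 differences were 0.12 for Dlg1, 0.09 for Dlg4, 0.07 for Dlgap4, -0.14 for Dlg2 and -0.16 for Dlgap1, and none of them passed with or without the block. Dlg4 stood at 134 and 132 CPM in control and at 139 and 145 CPM after PTX, and its standard error of 0.16 comes from a spread that the fit shares with the process libraries.

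In processes, Mpp2 was the only member to pass the test after PTX, where 3.74% of all tested genes passed and 2.10% were lower. It stood at 36.5 and 26.8 CPM in control and at 18.9 and 19.7 CPM after PTX, so the groups did not overlap. The level fell by 0.71 ± 0.16 on the log2 scale, or 1.64-fold (adjusted p = 0.0324, or 0.000607 with the block). The call rested on few libraries. It was lost when only the 4 process libraries were fitted (adjusted p = 0.0782), and without somata control replicate 1 or 2, processes control replicate 1, or processes PTX replicate 1 or 2 (adjusted p = 0.0506, 0.0517, 0.208, 0.148 and 0.127). Leaving out each of the 8 libraries in turn gave log2 differences from -0.91 to -0.47. Leaving out processes control replicate 1, the higher control library, gave the smallest difference.

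Dlg3 and Dlgap1 had the next lowest values in processes and did not pass the quasi-likelihood test. Both passed with the likelihood ratio test, where 949 of 14309 genes passed, and without a filter, where 1129 of 22657 passed. In the main fit 535 of 14309 passed. The study, which used the likelihood ratio test, names both among genes lowered in processes where it describes compartment-specific regulation. Comparing RNA with protein, it also reports preferential lowering of Dlg3 in processes. In the fit used here both were negative in somata too, at -0.37 for Dlg3 and -0.16 for Dlgap1. Their interactions of -0.14 ± 0.21 and -0.33 ± 0.20 did not pass. Dlg3 stood at 56.4 and 41.8 CPM in control and at 34.2 and 34.4 CPM after PTX, a log2 difference of -0.52 ± 0.16 (adjusted p = 0.109, or 0.00368 with the block). Without processes control replicate 2 it passed, at -0.72 (adjusted p = 0.0412). Dlgap1 stood at 137.6 and 108.9 CPM against 96.1 and 79.3 CPM, a log2 difference of -0.49 ± 0.15 (adjusted p = 0.105, or 0.000803 with the block). In both genes the PTX libraries lay below the control libraries. Dlg2 stood at 211 and 144 CPM against 163 and 122 CPM and overlapped, and its log2 difference of -0.32 ± 0.21 passed with the block alone (adjusted p = 0.497, or 0.0323 with the block). With the block 4 members passed in processes, Dlg2, Dlg3, Dlgap1 and Mpp2, all of them lower, where 11.2% of all genes passed.

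Dlg4, the most studied of these scaffolds, showed no detectable difference in processes after PTX. It stood at 541 and 373 CPM in control and at 479 and 419 CPM after PTX, with both PTX libraries between the control libraries. The log2 difference was -0.03 ± 0.16 (adjusted p = 0.966), and it became 0.27 without processes control replicate 1 and -0.27 without replicate 2. Log2 differences of Dlgap3, Dlg1, Dlgap2 and Dlgap4 were 0.12, 0.10, 0.04 and -0.03, each with overlapping groups. With scaling by library size alone Dlg4 and Dlgap4 were at 0.03. Groups did not overlap for 3 of the 9 members, against 42.4% of all genes, and the median was -0.03 for members and -0.01 for all genes.

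Processes control replicate 1 bears on these values. Its summed level of the 9 members was 1291 CPM, against 951 CPM in replicate 2, and 8 of the 9 members were higher in it, where 51.7% of all genes were. Replicate 1 had the higher sum in the other conditions too. The sums were 555 and 514 CPM in somata control, 540 and 510 CPM in somata PTX, and 1097 and 962 CPM in processes PTX. In these conditions 7, 5 and 6 of the 9 members were higher in replicate 1, where 49.9%, 53.0% and 50.6% of all genes were. Summed marker levels of control and PTX libraries are set beside these values, but few single markers passed the test after PTX. Rbfox3 of the neuron and Gja1 of the astrocyte markers were lower in somata, and none of these 2 lists passed in processes. Of the 3 inhibitory neuron markers, 2 were higher in somata and 1 in processes. Of all genes, 3.59% passed in somata and 3.74% in processes. The 5 neuron markers summed to 1591 and 1457 CPM in somata control and 1395 and 1261 CPM in somata PTX, and to 5256 and 4991 CPM and 4380 and 3735 CPM in processes. The 3 markers of inhibitory neurons summed to 278 and 203 CPM in somata control and 470 and 367 CPM in somata PTX, and to 156 and 124 CPM and 266 and 203 CPM in processes. The astrocyte markers summed to 3651 and 4077 CPM in somata control and 2755 and 3799 CPM in somata PTX, so the somatic groups overlapped. In processes they summed to 14255 and 12694 CPM in control and 10788 and 12065 CPM after PTX. The part of these marker levels in the PTX values of the scaffold genes was not tested.

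**Figure D4:**
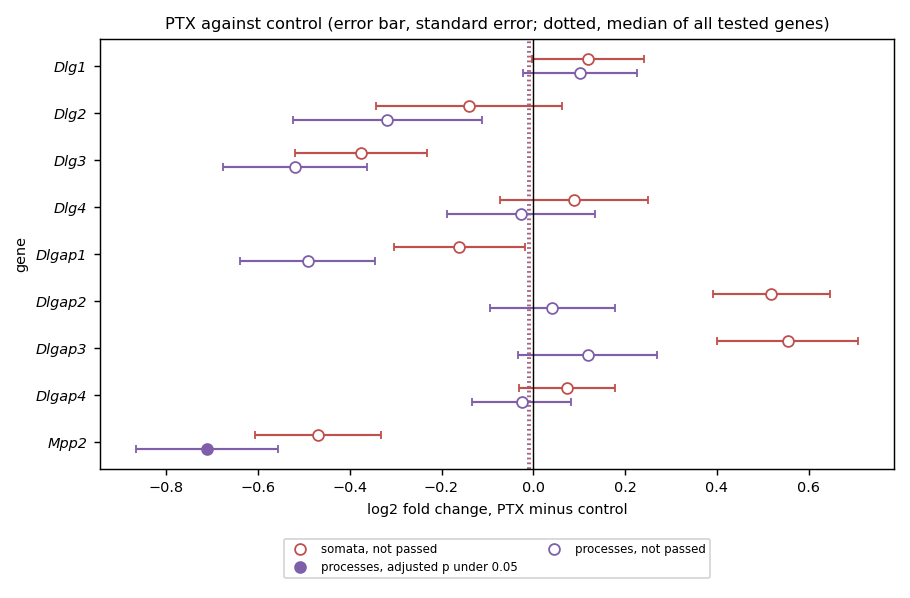
Log2 fold change of PTX against control for each scaffold gene in somata and in processes (points, estimates; bars, standard errors; filled, adjusted p under 0.05; dotted lines, median of all tested genes). Mpp2 in processes is the only filled point at -0.71, Dlgap2 and Dlgap3 lie above 0.5 in somata only as estimates that did not pass, and the near-zero values of Dlg4 and Dlgap4 in processes change sign with scaling by library size alone.

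Whether PTX acted differently in the compartments was tested as an interaction, the PTX difference in processes minus that in somata. No member passed, and no gene of the 14309 tested passed either (0% called; smallest adjusted p = 0.115, edgeR quasi-likelihood test), while 572 genes had an unadjusted p under 0.05. The likelihood ratio test and DESeq2 each called 4 genes (0.0280%) and the block fit 15 (0.105%), among them no member. Dlgap2 was the only member with an unadjusted p under 0.05, at -0.48 ± 0.19 on the log2 scale (adjusted p = 0.999993, or 0.283 with the block). The other values ran from -0.44 for Dlgap3 to -0.02 for Dlg1, so all 9 estimates were negative, where 51.7% of all genes were negative. For Dlg1 the sign turned to 0.01 with upper quartile scaling. Leaving out 1 library also turned signs, in 3 of 8 fits for Dlg1 and for Dlg2, in 2 for Dlg3 and in 1 for Dlg4. Without processes control replicate 1, Dlg2, Dlg3 and Dlg4 were at 0.12, 0.089 and 0.18. In that fit Dlgap4 and Mpp2 were at -0.00018 and -0.0013, and Dlgap1 and Dlgap3 at -0.15 and -0.19. The estimates of the 9 genes share the same 8 libraries and are not independent of each other.

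Paralog ratios after PTX were tested across both compartments, with libraries exchanged only within a compartment. This design allows 36 assignments and no p below 0.0556, so no pair could pass. The pairs at this smallest p (adjusted 0.133, two-sided exact permutation test) were 5. Dlgap1 fell relative to each of its paralogs, with log2 changes of -0.60 over Dlgap2, -0.67 over Dlgap3 and -0.35 over Dlgap4, which are values and not calls. For Dlgap1 over Dlgap3 the change was -0.72 in somata and -0.62 in processes. Dlg3 was lower relative to Dlg1, with a change of 0.55 for Dlg1 over Dlg3, and relative to Dlg4, with a change of -0.48, which was -0.47 in somata and -0.50 in processes. The ratio of Dlg1 to Dlg4 changed by 0.07 (p adjusted 0.611, exact permutation test).

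The partners of these scaffolds were described by lists of genes of known function, chosen with earlier results of these data known. Between compartments of control cultures, 47.7% of all tested genes passed, 25.8% higher and 21.9% lower in processes. The closest layer, the Shank and Homer scaffolds that the Dlgap proteins recruit, had all 6 of its genes higher in processes of control cultures, with a median log2 difference of 1.98 against -0.05 for all genes. Shank1 was at 3.31 ± 0.21 (adjusted p = 1.22e-06), Shank3 at 3.14 ± 0.17 and Shank2 at 1.71 ± 0.13, and with scaling by library size alone 3 of the 6 turned negative. After PTX, 4 of the 6 fell in processes, and Homer1 rose, where 3.74% of all genes passed. The 4 were Shank1 at -1.12 ± 0.20 (adjusted p = 0.0135), Shank2 at -1.06 ± 0.13 (adjusted p = 0.00308), Homer2 at -0.61 ± 0.11 and Homer3 at -0.82 ± 0.19, and Shank3 was at -0.53 (adjusted p = 0.105). Homer1, whose short activity-induced form competes with the long forms, rose by 0.54 ± 0.12 in processes (adjusted p = 0.0382) and by 0.51 ± 0.12 in somata (adjusted p = 0.0395), and the counts per gene do not separate its forms. With the block 1 of the 6 rose and 2 fell in somata, where 14.0% of all genes passed. In processes 1 rose and 5 fell, where 11.2% passed. Homer1, Homer2 and Homer3 are named because of their values.

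Cytosolic enzymes and adaptors that bind Dlg or Dlgap proteins were also mostly higher in processes, with 18 of 26 higher and 3 lower in control cultures and a median of 0.74, and 14 of the 21 called genes changed sign with scaling by library size alone. The most abundant were Kif1b, a kinesin motor, at 0.78 ± 0.12, Map1a, a microtubule-associated protein that binds PSD-95, at 2.46 ± 0.15, and Camk2a, the major postsynaptic kinase, at 2.55 ± 0.15. After PTX, 1 of the 26 rose and 4 fell in somata, where 3.59% of all genes passed. In processes 1 rose and 6 fell, where 3.74% passed. The medians were -0.25 and -0.34. Those that fell in somata, named because of their values, were Camk2a, Iqsec2, Akap5 and Baiap2. Camk2a fell by 1.13 ± 0.15 on the log2 scale in somata (adjusted p = 0.00305) and by 1.45 ± 0.15 below the filter (adjusted p = 0.00165), and Map1a fell by 0.75 ± 0.15 in processes (adjusted p = 0.0211). Named because of its value, Iqsec3, an Arf exchange factor known from inhibitory synapses, was the 1 gene that rose, by 0.82 ± 0.13 in both layers (adjusted p = 0.00806 and 0.00853). Of the markers of inhibitory neurons, Gad2 was higher after PTX by 0.92 in both layers (adjusted p = 0.0328 and 0.0384) and Gad1 by 0.82 in somata (adjusted p = 0.0247), while Gad1 in processes was at 0.56 (adjusted p = 0.140) and Slc32a1 was at -0.02 and 0.16 and did not pass in either layer. The part of these markers in the value of Iqsec3 was not tested. With the block 2 of the 26 rose and 11 fell in somata, where 14.0% of all genes passed. In processes 2 rose and 12 fell, where 11.2% passed.

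Receptors, channels and adhesion proteins bound by the PDZ domains of Dlg proteins were the other way round in control cultures. Of 28 genes, 14 were lower and 5 higher in processes, with a median of -0.56, and scaling by library size alone turned the 5 negative. Named because of their values, the 5 were Kcna2, the TARP genes Cacng2, Cacng4 and Cacng7, and Kcnj10, a potassium channel of astrocytes. Gria1, an AMPA receptor subunit, was at -0.71 ± 0.12 (adjusted p = 0.000629), and Grin2b, an NMDA receptor subunit, at -1.23 ± 0.12 (adjusted p = 1.90e-05). Kcna2, an axonal potassium channel, was at 0.37 ± 0.11 (adjusted p = 0.0136). After PTX 2 rose and 1 fell in somata and 1 fell in processes, where 3.59% and 3.74% of all genes passed. Named because of their values, these were Kcna1 at 0.97 ± 0.19 and Kcnj4 at 0.84 ± 0.12, both potassium channel subunits, Gria1 at -0.53 ± 0.12 (adjusted p = 0.0301), and in processes the TARP gene Cacng2 at -1.11 ± 0.19 (adjusted p = 0.0132). With the block 5 of the 28 rose and 6 fell in somata, where 14.0% of all genes passed. In processes 3 rose and 3 fell, where 11.2% passed.

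A list of 17 genes covered palmitoylation and its removal, phosphorylation and ubiquitination of PSD-95, GKAP or other postsynaptic proteins. Of these, 4 were higher and 6 lower in processes of control cultures, with a median of -0.25. The 4 turned negative with scaling by library size alone. Named because of their values, the 4 were the palmitoyltransferases Zdhhc2 and Zdhhc3 and the depalmitoylating enzymes Abhd17a and Abhd17c. After PTX 1 of the 17 passed in each layer, where 3.59% of all genes passed in somata and 3.74% in processes. It was Plk2, an activity-induced kinase that directs degradation of postsynaptic proteins. Its log2 difference was 1.66 ± 0.21 in somatic libraries (adjusted p = 0.00235), and among process libraries it was 1.11 ± 0.25 (adjusted p = 0.0369). Ube3a, a ubiquitin ligase, was at 0.13 and 0.19, and Abhd17a, a depalmitoylating enzyme, at 0.14 and 0.02, and neither passed. With the block 3 of the 17 rose in somata and 2 in processes, where 14.0% and 11.2% of all genes passed.

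Among 12 tested MAGUK genes other than the members, 7 were higher and none lower in processes of control cultures (edgeR quasi-likelihood test), with a median of 0.41, and all 7 turned negative with scaling by library size alone. Among the most abundant were Tjp1, a tight junction scaffold, at 0.65 ± 0.11 and Cask, a presynaptic and postsynaptic scaffold, at 0.31 ± 0.10. After PTX none passed in somata (edgeR quasi-likelihood test), where 2 had an unadjusted p under 0.05 against 15.6% of all genes, and in processes none was called lower. With the block Dlg5, named because of its value, fell in somata, where 14.0% of all genes passed. In processes the log2 differences were negative for 7 of the 12, where 51.6% of all genes were negative, and ran down to -0.95. Whether they differed from that of Mpp2 was not tested.

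**Figure D5:**
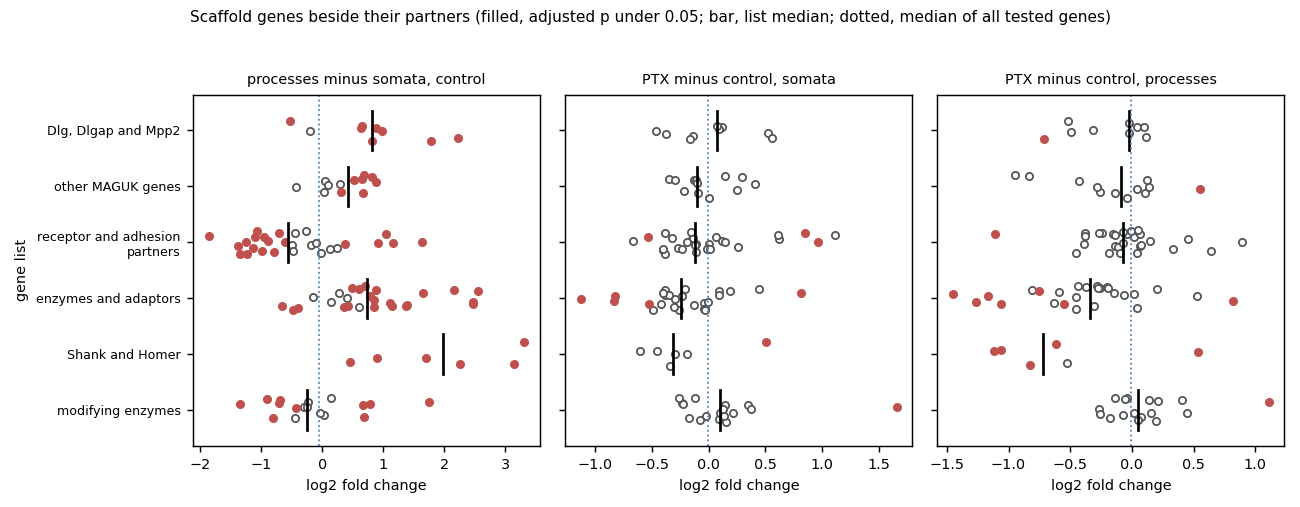
Log2 fold change of each tested gene of the scaffold group and of 5 lists of related genes, for processes against somata in control cultures and for PTX against control in each compartment (points, genes; filled, adjusted p under 0.05; bars, list medians; dotted line, median of all tested genes). The Shank and Homer genes have a median of 1.98 in the first panel and -0.72 in the last; with scaling by library size alone the positive compartment values of most genes turn negative.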

How the data were processed

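RNA of 8 libraries was measured by ribosomal RNA-depleted sequencing. The authors deposited a table of raw counts per gene symbol. According to their methods, reads were trimmed with Trimmomatic 0.38, mapped with Subread subjunc 1.33.16 to Rnor 6.0 and counted with featureCounts 1.6 on Ensembl 96, whereas the submitters' processing notes name STAR; the aligner thus stays unsettled. Further deposited columns with the authors' log2 fold changes, log2 CPM, likelihood ratios and p-values were not used. No sample column was left out.

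A gene was tested if 2 or more libraries had over 20 reads of it, and counts were scaled by TMM and fitted with edgeR 4.0.16 (R 4.3.3, limma 3.58.1) in 1 quasi-likelihood model with 4 conditions. p-values were adjusted by Benjamini-Hochberg over all tested genes and called below 0.05. The log2 CPM behind the paralog ratios and correlations used a prior count of 2. DESeq2 1.42.0, other scalings and filters, the 4 libraries alone, a replicate block and omission of each library were alternatives, named in the closing section. The scripts were tested on simulated data. Same-numbered libraries deviated together (r = 0.274 to 0.540 over all pairs of conditions, across genes). Their numbers were taken to pair them in the replicate block and in the exchange within pairs only. The main model had no replicate term, so its p-values are unpaired. The common dispersion was 0.0132 without and 0.00459 with the block.

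The members and lists were chosen with earlier results of these data known, and the study itself names Dlg4, Dlg3, Dlgap1 and Mpp2 from these libraries, so none of their values is independent support. All members are named in each comparison, with the 3 most abundant genes of each list and the gene most correlated with each member, except for 2 genes that are not reported here. Names and overlaps came from RefSeq GRCr8, whose coordinates are not given because the build differs. The lowest count of a member in a library was 165 reads.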

Additional observations from a re-analysis of the deposited data

How the results depend on the processing

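Of 801 values of single members under the alternatives, 713 kept their sign and their side of the threshold. The number of members called after PTX in somata, 0, became 3 with the likelihood ratio test, 1 with DESeq2, 2 with scaling by library size alone, 3 without a filter, 3 with only the 4 libraries compared and 4 with the replicate block, and 0 to 3 when 1 library was left out. After PTX in processes, 1 became 3 with the likelihood ratio test, 3 without a filter, 0 with only the 4 libraries and 4 with the block, and 0 to 2 when 1 library was left out. The replicate block otherwise changed the call of Dlgap1 between compartments of PTX cultures and no other call of a member. Over all genes, PTX calls in somata were 513, and 972 with the likelihood ratio test, 503 with DESeq2, 491 by library size alone, 1141 without a filter, 599 with only the 4 libraries and 2002 with the block. In processes they were 535, and 949 with the likelihood ratio test, 1129 without a filter, 298 with only the 4 libraries and 1601 with the block. For the interaction 0 became 4 with the likelihood ratio test and with DESeq2, 10 without a filter and 15 with the block. The fits without a filter tested 22657 genes, against 14309 in the main fit. Leaving out 1 library gave 117 (without somata control replicate 2) to 568 calls after PTX in somata and 97 (without processes control replicate 1) to 478 in processes. In 2 alternatives chosen after seeing the data, the 8 paralog pairs whose ratio differed between compartments became 0 with exchange within a treatment and 0 with the replicate block, that is exchange within pairs, where the design allows no smaller p than 0.0556 and 0.125.

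Scaling by library size alone called 13462 genes between compartments in control cultures, against 6823, and 13499 in PTX cultures, against 7121, and moved Dlg1, Dlg2, Dlg4, Dlgap1, Dlgap2 and Dlgap4 to -0.82, -1.0, -0.048, -1.17, -1.18 and -0.93 in control cultures. In PTX cultures Dlg1, Dlg2, Dlg4, Dlgap1, Dlgap2, Dlgap3 and Dlgap4 moved to -0.85, -1.19, -0.17, -1.52, -1.68, -0.044 and -1.05. It moved Dlg4 and Dlgap4 after PTX in processes to 0.034 and 0.027. These shifts follow from the scaling itself, under which the median of all genes was -1.86 and -1.87. Upper quartile scaling moved Dlgap2 between compartments of PTX cultures to -0.026 and the interaction of Dlg1 to 0.0087, and it split the compartment calls into 2750 higher and 4704 lower in control cultures, against 3688 and 3135, and 2904 and 4768 in PTX cultures, against 3680 and 3441. Calls after PTX in somata were 351 higher and 140 lower by library size alone, against 299 and 214.

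Leaving out 1 library at a time gave log2 differences after PTX in somata from -0.0047 to 0.24 for Dlg1 and -0.32 to 0.050 for Dlg2. In processes they ran from -0.019 to 0.21 for Dlg1, -0.27 to 0.27 for Dlg4, -0.088 to 0.16 for Dlgap2, -0.090 to 0.36 for Dlgap3 and -0.12 to 0.073 for Dlgap4. Interaction values ran from -0.14 to 0.11 for Dlg1, -0.42 to 0.12 for Dlg2, -0.34 to 0.089 for Dlg3 and -0.36 to 0.18 for Dlg4. The log2 ratio of Dlgap1 to Dlgap2 changed between compartments by -0.036 to 0.21, and after PTX that of Dlg1 to Dlg4 changed by -0.074 to 0.21 and that of Dlgap2 to Dlgap3 by -0.16 to 0.032. The cause was not tested.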

Other observations

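For each member but Dlgap4, the gene with the most similar log2 CPM over the 8 libraries was sought by Pearson's r among the 10199 tested genes whose mean was 5 CPM or more. The libraries of a compartment share their depth and mitochondrial share, so r is given as a description. The nearest gene was Brsk1, a kinase of neuronal polarity, for Dlg4 (r = 0.999), Sardh, sarcosine dehydrogenase, for Dlgap3 (0.998) and Nedd8, a ubiquitin-like modifier, for Dlg1 (0.997). For the members with a smaller compartment difference it was Inpp4a, an inositol phosphatase, for Dlgap1 (0.994), Tspan18, a tetraspanin, for Dlg3 (0.994), Cplx1, complexin 1 of presynaptic terminals, for Dlg2 (0.993), Cxcl12, a chemokine, for Mpp2 (0.987) and AC109048.1 for Dlgap2 (0.969). Brsk1 was higher in processes of control cultures by 2.21 on the log2 scale and Sardh by 1.23, where Dlg4 and Dlgap3 were at 1.78 and 2.22, so a near-perfect r did not mean an equal difference. Cxcl12 was at -0.60 after PTX in somata and at -0.73 in processes, and neither passed the test (adjusted p = 0.0755 and 0.0818, edgeR quasi-likelihood test), where Mpp2 was at -0.47 and -0.71.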
